A study of Macaca mulatta with 4 samples.

Results

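The regions described here are 681 scattered 10-kb bins of the rhesus macaque genome. They carried H3K27me3 coverage in androgenetic embryos and had no coverage in gynogenetic embryos. H3K27me3 is histone H3 trimethylated on lysine 27. Morulae of Macaca mulatta were profiled by CUT&RUN with an anti-H3K27me3 antibody, in 2 libraries labelled AG and 2 labelled GG, for a series on genomic imprinting before implantation. AG stands for androgenetic embryos, whose nuclear genome comes from the father, and GG for gynogenetic embryos, whose nuclear genome comes from the mother. All 4 libraries share stage and antibody. The labels name no other treatment, and the number of embryos behind a library is not given in the sources used here. Nothing in the labels says that 2 libraries of a group came from separate pools, so the spread between them may be technical.

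The members were chosen as follows on the autosomes, chromosomes 1 to 20 of the build rheMac8. Each chromosome was divided into bins of 10 kb, and the bases of each bin lying under a deposited interval were summed for each library. Such an interval is a stretch under sequenced tags on an island that the submitters called enriched. A bin was AG-only with at least 450 covered bases in both AG libraries and none in either GG library. This held for 1213 of 267367 bins (0.454%). Members are the AG-only bins in windows of 1 Mb that hold 1 to 3 of them, which gave 681 scattered bins in 493 windows. The other 532 AG-only bins lay in 70 windows with at least 4 each and are called clustered below. Coverage in all 4 libraries chose the members, so AG coverage above GG coverage inside them is a description and was not tested. With 2 libraries against 2, an exact two-sided permutation test cannot give a p below 0.333.

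H3K27me3 is deposited by Polycomb repressive complex 2 (PRC2) and marks genes and larger regions held silent during development. In mouse oocytes the mark forms broad domains away from its usual promoter sites, and part of this maternal H3K27me3 persists in the early embryo, where it silences the maternal copy of a small set of genes, a form of imprinting that does not rest on DNA methylation. Embryos with a genome from a single parent allow the marks of each parental genome to be read without sorting alleles. In CUT&RUN, an antibody directs protein A-micrococcal nuclease to the mark, and the cut DNA is sequenced. A pool of embryos gives an average, so fewer nuclei with the mark at a site and less of the mark in each nucleus cannot be told apart.

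The interval files hold no tag counts, and sequencing depth is unknown. AG replicates 1 and 2 listed 42512 and 44337 intervals, and GG replicates 1 and 2 listed 362999 and 287230. Islands were called with a window and gap of 200 bp in AG and with a window of 300 bp and a gap of 1200 bp in GG, so calling settings and groups cannot be told apart. A bin without a GG base held no tag on a called GG island, which does not show that the mark was absent there. The members held 1460 kb of covered bases in AG replicate 1 and 1470 kb in AG replicate 2, the latter 8.65% of the autosomal coverage of that library. Genes and DNA sequence in the members were not analysed here.

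AG coverage in the scattered bins was narrow, and its median was similar between the AG libraries. The rule required at least 450 covered bases in both. AG replicate 1 had a lowest value of 455 covered bases, a median of 1860 and a highest value of 9137. AG replicate 2 had a lowest value of 450, a median of 1838 and a highest value of 9566. The mean of the medians was 1849 ± 15.6 covered bases (SD, n = 2). Both libraries held at least 1000 covered bases in 551 members and at least 5000 in 19 members. AG replicate 2 was the higher of the pair in 330 members (48.5%), so neither library was higher throughout. The larger AG value exceeded the smaller by a median factor of 1.32, and by more than 2-fold in 105 members. Across members the Spearman correlation between the AG libraries was 0.546. It was 0.492 in clustered bins and 0.719 in bins with at least 450 covered bases in all 4 libraries.

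**Figure D1:**
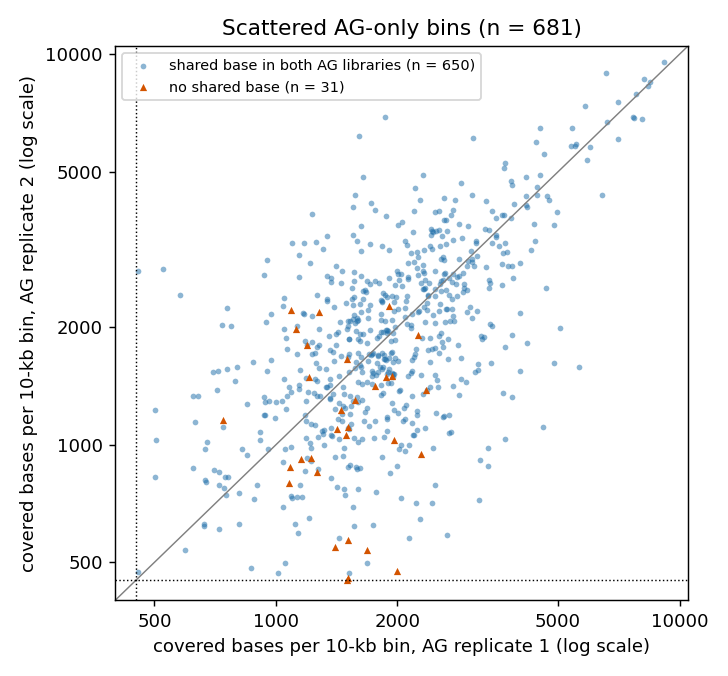
Covered bases per 10-kb bin in AG replicate 1 (x axis) and AG replicate 2 (y axis), both on log scales, for the 681 scattered AG-only bins; dotted lines mark the 450 bases required by the rule and the grey line marks equal values. Most points lie between 1000 and 5000 bases, and triangles show the 31 bins in which the AG libraries had no covered base in common.

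Among the 5 most covered members, 3 were parts of stretches wider than a bin and 2 were not. Ranked by the smaller of their AG values, the first was chr13:103310001-103320000 on rheMac8, where AG replicate 1 covered 9137 bases and AG replicate 2 covered 9566. Its right-hand neighbour, chr13:103320001-103330000, was next with 8426 and 8491. Both belong to a stretch of 47132 bp, from 103304327 to 103351458 on chromosome 13, in which bases covered in both AG libraries lay at most 1500 bp apart. GG libraries covered bases elsewhere in that stretch, and the nearest GG interval began 180 bp from the first bin in GG replicate 2 and 4950 bp from it in GG replicate 1. The pair is therefore a GG-free part of a wider region that GG also covered. The third, chr14:21730001-21740000, held 8358 and 8298 covered bases in 2 shared stretches, the wider of 4543 bp, and lay 739 bp from an interval of GG replicate 1. The fourth, chr13:89160001-89170000, held 8182 and 8638 and belonged to a stretch of 18965 bp, with GG replicate 1 at a distance of 3305 bp and GG replicate 2 at 120675 bp. The fifth, chr17:7310001-7320000, held 7780 and 7931 in a stretch of 9169 bp and had no GG interval within 17651 bp. In these 5 bins the AG libraries differed by at most 1.06-fold. The first 4 of the 5 had GG bases in an adjacent bin.

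**Figure D2:**
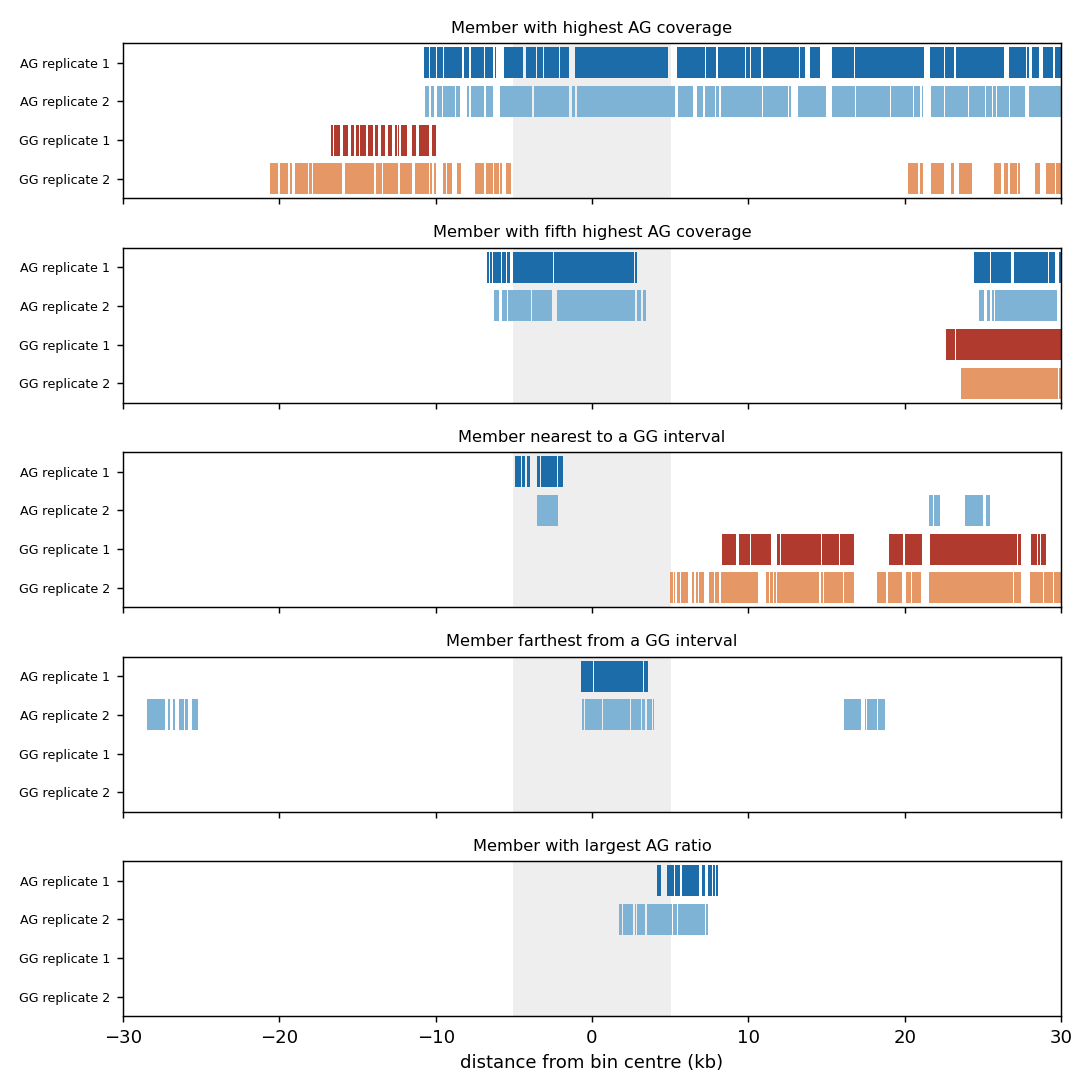
Deposited intervals of the 4 libraries around 5 members, drawn to scale as distance from the bin centre in kb; the grey band is the member bin and each bar is an interval. AG bars of the most covered member run through and beyond its bin with bars of GG replicate 2 on both sides, whereas the member farthest from GG has no GG bar in view.

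The least covered members lay close to the threshold. The lowest smaller value was at chr3:124450001-124460000, where AG replicate 1 covered 1497 bases and AG replicate 2 covered 450, with no base common to both. It was followed by chr14:56170001-56180000 with 455 and 2779, chr3:1420001-1430000 with 456 and 473, chr4:107460001-107470000 with 1510 and 457, and chr19:37670001-37680000 with 1010 and 469. The bin on chromosome 14 also had the largest ratio between the AG libraries, at 6.11. Its shared stretch, from 56179187 to 56182232, crossed the right edge of the bin into another AG-only bin, so the bin edge divided a single site. Just outside the threshold, chr11:8280001-8290000 held 448 and 1458 covered bases and chr13:45760001-45770000 held 443 and 675, both without a GG base. Among bins without a GG base, the smaller AG value lay up to 50 bases above the threshold in 16 and up to 50 bases below it in 12. Few bins lay just outside the requirement of no GG base. Of 3950 autosomal bins marked in both AG libraries, where marked means at least 450 covered bases, 22 had some GG coverage but fewer than 450 bases in each GG library. At the other limit of the rule, 38 windows held 3 AG-only bins and 23 windows held 4.

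Within a member the AG libraries usually marked a single short site. A member held a median of 6 intervals in AG replicate 1 and 5 in AG replicate 2, and the longest had a median of 668 and 804 bp. From the first to the last covered base the intervals spanned a median of 2484 and 2234 bp, of which a median of 76.9% and 84.6% was covered. Bases covered in both AG libraries were present in 650 of 681 members. In 633 of these the shared bases formed a single stretch when joined over gaps of at most 1500 bp, and in 17 they formed more than 1. The widest shared stretch touching a member had a median width of 1920 bp, with quartiles of 1234 and 2930 bp, and exceeded 10 kb for 14 members. It crossed a bin edge for 169 members, and the 650 members belonged to 598 distinct stretches. The stretch contained a GG base outside the member bin for 8 members. The widest after the chromosome 13 stretch was the 25717-bp stretch from 7087938 to 7113654 on chromosome 2, which reached the member chr2:7080001-7090000, where 2597 and 2638 bases were covered in AG.

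By the rule both AG libraries cover every member, and in most members they also had covered bases in common. The overlap to be expected within a bin covered in both was not computed. Bases covered in both made up a median of 47.1% of the bases covered in either, with quartiles of 31.7% and 59.4%, and more than 50% in 308 members. In clustered AG-only bins this median was 36.1%, and in the 2373 bins marked in all 4 libraries it was 50.9%. Median AG coverage was also higher in both of these sets, at 2192 ± 36.8 covered bases in clustered bins and 2378 ± 47.4 in bins marked in all 4 libraries (SD, n = 2 each), against 1849 ± 15.6 in the scattered bins. AG coverage took part in choosing each of these sets. The SDs are between the medians of 2 libraries over the same bins and do not measure the spread between bins. The differences were not tested. In 31 members (4.55%) the AG libraries covered the same bin at separate positions. Those 31 bins meet the rule without a common site.

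Profiles were centred on bases covered in both AG libraries, so a high AG value at the centre follows from the rule and the centring. The limit of 3 AG-only bins per window also bears on the AG values farther out. Around the centres of 594 stretches with at least 50 kb of chromosome on either side, the central 1 kb was covered to 77.0% in AG replicate 1 and 81.4% in AG replicate 2. At 3 kb to the right the AG libraries were at 6.90% and 6.34%, and at 50 kb to the right at 2.00% and 1.94%. The GG libraries were at 0.176% and 0.275% in the central 1 kb, a level largely fixed by the rule, and reached 3.34% and 3.51% at 10 kb to the right. At 50 kb on either side they stood between 9.34% and 11.2%. Around the stretches of bins marked in all 4 libraries the AG libraries stood at 79.6% and 83.1% at the centre and at 17.1% and 17.9% at 3 kb, above the scattered bins there, while GG replicates 1 and 2 were at 91.0% and 90.3% at the centre and still at 29.3% and 30.5% at 50 kb.

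**Figure D3:**
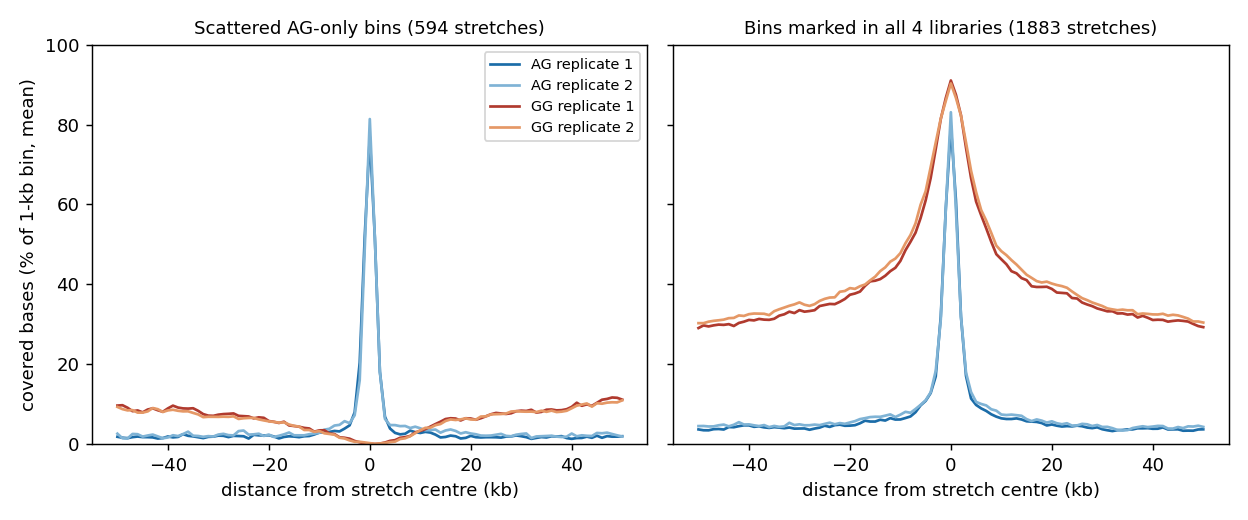
Mean percentage of covered bases in 1-kb bins (y axis) against distance from the centre of the shared AG stretch in kb (x axis), for each library, around scattered AG-only bins (left, 594 stretches) and bins marked in all 4 libraries (right, 1883 stretches). On the left the AG libraries peak at 77.0% and 81.4% over a GG trough set by the rule, and on the right the AG libraries stand at 17.1% and 17.9% at 3 kb on top of a wide GG peak.

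To read the choice of members against data that took no part in it, the rule was applied with 3 libraries and the resulting bins were looked up in the library left out. Bins chosen with AG replicate 1 and both GG libraries numbered 970, and AG replicate 2 marked 568 of them, or 58.6% (exact 95% binomial interval 55.4% to 61.7%), against 1.45% of all bins without a GG base. Bins chosen with AG replicate 2 numbered 1365, and AG replicate 1 marked 402, or 29.5% (27.0% to 31.9%), against 0.837% of all bins without a GG base. Both shares were far above the background of the library looked up, while most bins chosen with AG replicate 2 were not marked in AG replicate 1. Intervals cover counting error of bins alone, and neighbouring bins are not independent.

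The AG coverage of a bin went with its recovery in the other AG library. Of bins with 450 to under 1000 covered bases in AG replicate 2, AG replicate 1 marked 57 of 404 (14.1%). With 1000 to under 2000 bases it marked 172 of 706 (24.4%), with 2000 to under 3000 bases 102 of 173 (59.0%), and with 3000 or more 71 of 82 (86.6%). In the opposite direction the shares were 37.4% of 139 bins, 54.7% of 516, 67.1% of 228 and 93.1% of 87. The order was the same in both directions. With AG replicate 1 looked up, exact 95% intervals were 10.9% to 17.9% in the lowest class and 77.3% to 93.1% in the highest. With AG replicate 2 looked up they were 29.4% to 46.0% and 85.6% to 97.4%. These intervals treat bins as independent and leave out variation between libraries, since each direction looks up 1 library. Bins within 5 Mb of a chromosome end were marked by AG replicate 1 in 39.3% of 140 cases and elsewhere in 28.3% of 1225, and by AG replicate 2 in 61.7% of 162 and 57.9% of 808.

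**Figure D4:**
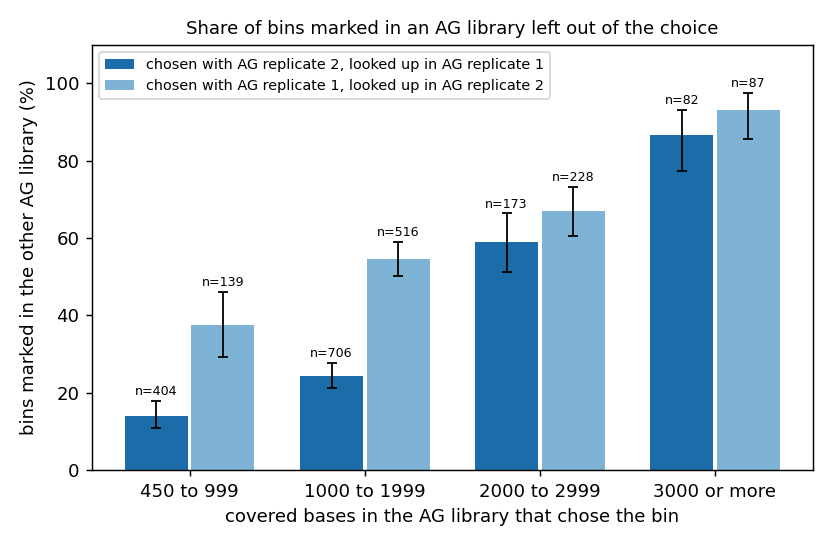
Percentage of bins marked in the AG library that took no part in their choice (y axis) against covered bases in the AG library that chose them (x axis); bars give the share, error bars the exact 95% binomial interval and n the number of bins. The share runs from 14.1% to 86.6% when AG replicate 1 is looked up and from 37.4% to 93.1% when AG replicate 2 is looked up.

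The absence of GG coverage was less stable in such bins than in GG-free bins at large, most of which had no base in any library. These shares were not computed for clustered AG-only bins or bins marked in 1 AG library. They are therefore not shown to be particular to the scattered bins. Bins chosen with both AG libraries and GG replicate 2 numbered 796, and GG replicate 1 had no base in 635 of them, or 79.8% (exact 95% binomial interval 76.8% to 82.5%). Among all bins without a base in GG replicate 2, 96.1% also had none in GG replicate 1. Bins chosen with GG replicate 1 numbered 699, and GG replicate 2 had no base in 658, or 94.1% (92.1% to 95.8%), against 99.1% of all bins without a base in GG replicate 1. Among all autosomal bins the shares without a base were 86.0% in GG replicate 1 and 88.6% in GG replicate 2. Where GG replicate 1 did cover such a bin, it covered a median of 3282 bases in 161 bins, against a median of 8073 in bins marked in all 4 libraries. The median was 2036 in the 41 bins that GG replicate 2 covered, against 8330. The bins looked up had no base in the other GG library, whereas bins marked in all 4 libraries have at least 450 in both. These medians are therefore not a like comparison. GG replicate 1 listed more intervals than GG replicate 2, and the part of depth in these shares was not tested.

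GG coverage lay nearer to the scattered bins than to GG-free bins at large. At the median it lay about as near as to GG-free bins marked in 1 AG library. Measured from the bin edge, the nearest interval was at a median of 60.3 kb in GG replicate 1 and 90.3 kb in GG replicate 2, or 75.3 ± 21.2 kb (SD, n = 2). Over all 227808 bins without a GG base these medians were 155.0 and 239.6 kb. Most of these bins had no base in any library. Bins marked in 1 AG library and without a GG base, of which there were 2788, do not include such empty bins, and their medians were 66.4 and 92.0 kb. In each GG library the scattered bins were slightly nearer at the median than these singly marked bins. An interval lay within 10 kb of 15.7% and 12.8% of scattered bins, against 12.1% and 9.83% of singly marked bins. At the upper quartile the scattered bins were farther, at 176.3 and 242.0 kb against 156.7 and 222.6 kb. These differences were not tested. Clustered AG-only bins were nearer at the median, at 47.4 and 61.6 kb. Within 100 kb on either side, GG covered a mean of 8.62% and 8.37% around a member, 7.89% and 7.45% around a singly marked bin, 3.64% and 2.99% around a GG-free bin, and 7.80% and 7.23% of the autosomes.

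Members ranged from the edge of GG coverage to GG-free regions of over 1 Mb. A GG interval lay within 10 kb of 121 members (17.8%), between 10 and 100 kb from 305 (44.8%), and beyond 100 kb from 255 (37.4%) in both GG libraries. No GG base lay within 100 kb of 37.2% of singly marked bins, 22.2% of clustered bins and 60.85% of all GG-free bins. The share of members beyond 100 kb was thus close to that of singly marked bins. AG coverage of members showed no order over the 3 distance classes. The medians were 1892, 1825 and 1881 covered bases in AG replicate 1 and 1967, 1720 and 1863 in AG replicate 2. The median width of the shared stretch was likewise 1988, 1834 and 1926 bp. The nearest were chr10:1130001-1140000, 19 bp from an interval of GG replicate 2 and with 2315 and 1353 covered bases in AG, chr6:69790001-69800000 at 33 bp with 2107 and 2037, and chr2:47420001-47430000 at 170 bp with 1514 and 471. The farthest was chr20:58260001-58270000, 1233121 bp from GG replicate 1 and 2589720 bp from GG replicate 2. It held 4163 and 4336 covered bases in AG, of which 82.4% of those in either library were common to both. The next were the adjacent bins chr14:102370001-102380000, with 1227 and 2140 covered bases, and chr14:102380001-102390000, with 1646 and 1923, which share a 4003-bp stretch and lie over 1 Mb from any GG interval.

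**Figure D5:**
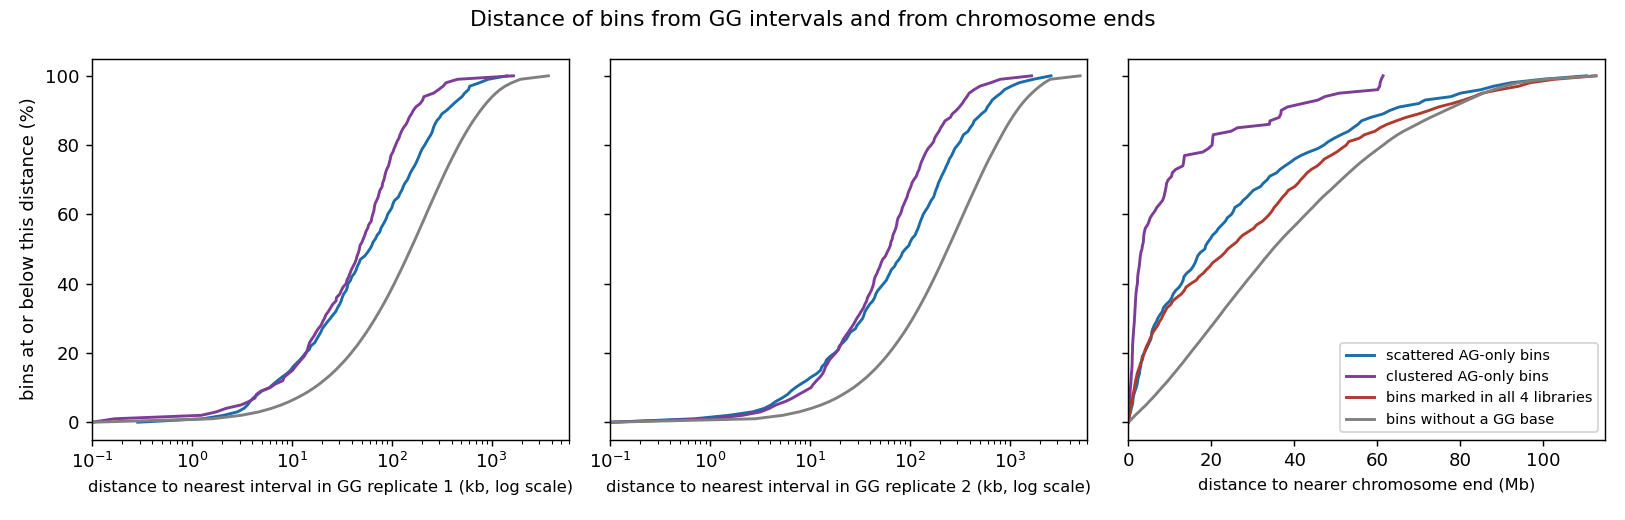
Cumulative percentage of bins (y axis) against distance to the nearest interval of GG replicate 1 (left, kb, log scale), of GG replicate 2 (middle, kb, log scale) and to the nearer chromosome end (right, Mb). Scattered AG-only bins have median distances of 60.3 and 90.3 kb to GG, against 155.0 and 239.6 kb for bins without a GG base, and clustered bins lie closest to chromosome ends.

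In their immediate surroundings the scattered bins were mixed. In 262 members (38.5%) no library covered a base in the bins on either side. An adjacent bin held an AG base in 391 members (57.4%), a GG base in 121 (17.8%), and was itself AG-only in 131 (19.2%). It was marked in all 4 libraries beside 30 members (4.41%). For singly marked bins these shares were, in the same order, 46.8%, 13.7%, 12.8% and 1.76%, and 47.3% had no adjacent base. For clustered bins they were 87.8%, 16.35%, 58.1% and 5.45%, and 10.9% had no adjacent base. The limit on AG-only bins per window bears on the AG-only shares of scattered and clustered bins. None of these differences was tested. Within 100 kb on either side, 91 members (13.4%) had no other base of any library. The next member lay at a median of 0.46 Mb, measured between bin starts, with an upper quartile of 1.70 Mb.

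Windows with a single AG-only bin held 343 members, windows with 2 held 224, and windows with 3 held 114. Members alone in a window had a median coverage of 1907 bases in AG replicate 1 and 1764 in AG replicate 2, and shared stretches with a median of 1680 bp. In windows with 2 the medians were 1645 and 1802 covered bases and 2209 bp, and in windows with 3 they were 2081 and 1921 covered bases and 2305 bp. The median width was larger with more bins in the window, while AG coverage did not follow that order in both libraries. Since a stretch that crosses a bin edge puts 2 bins into a window, part of this order is built into the counting. Of the members in windows of 2, 90 adjoined another AG-only bin, as did 41 in windows of 3 and 0 of those alone.

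Scattered bins occurred on every autosome, with 13 on chromosome 18 at the low end and 56 on chromosome 1 at the high end. Per length of chromosome there were 0.255 members per Mb on the autosomes together, from 0.121 on chromosome 5 to 0.839 on chromosome 19. Chromosome 19 stood apart, since the next highest values were 0.399 on chromosome 10 and 0.389 on chromosome 16. Its 45 members had a median coverage of 1727 bases in AG replicate 1 and 1948 in AG replicate 2, and 32 of them lay over 5 Mb from an end. Coverage of chromosome 19 as a whole was 0.651% and 1.24% in AG replicates 1 and 2, against 0.497% and 0.635% of all autosomes. The share of AG-only bins that were scattered was lowest on chromosome 18, with 13 of 52, and on chromosome 8, at 26.3%, and highest on chromosome 2, at 89.7%. On chromosome 17, where GG covered 2.67% and 2.09%, the 23 members lay farthest from GG replicate 1, at a median of 187 kb. From GG replicate 2 their median was 224 kb, and the members of chromosome 18 lay farthest, at 338 kb. These counts come from a single set of members, and differences between chromosomes were not tested.

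Scattered bins were more frequent toward chromosome ends. The ends of a chromosome were taken as position 0 and the last covered base in any library. Within 5 Mb of an end lay 157 of 681 members, at 0.785 per Mb. The remaining 2473.6 Mb held 524, at 0.212 per Mb. The ratio was 3.71. It depended on the window rule and on having both AG libraries. With a single AG-only bin allowed per window it was 2.16, and with 2-Mb windows 1.94. Without AG replicate 1 it was 1.41, and without AG replicate 2 it was 2.48. Leaving out GG replicate 1 gave 3.09 and leaving out GG replicate 2 gave 3.70. As a share of the set, 23.1% of members were in the outer 5 Mb, against 30.6% of bins marked in 1 AG library without a GG base, 23.3% of bins marked in all 4 libraries, 58.3% of clustered AG-only bins and 5.98% of bins without a GG base. A limit of 3 per window removes windows crowded with AG-only bins, and these lay mostly near ends. The 157 outer members had medians of 1965 and 1914 covered bases in AG and the 524 others 1842 and 1814. GG coverage within 100 kb was higher around the outer members, at 13.2% and 14.4%, than around the others, at 7.23% and 6.55%. The AG libraries had a median of 39.8% of bases in common in the outer members and of 48.6% in the others.

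The number of members rested on having both AG libraries. Without AG replicate 1 the rule gave 1365 bins with a median of 1247 covered bases in AG replicate 2, and without AG replicate 2 it gave 970 with a median of 1670 in AG replicate 1. Leaving out a GG library gave 796 and 699.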

How the data were processed

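Processed CUT&RUN files of 2 AG and 2 GG macaque morula libraries were analysed, grouped by the sample titles. Per the submitters' processing notes, the authors worked on rheMac8 with SICER 1.1, deepTools 3.3.1, Bowtie2, SAMtools and Trim Galore. Deposited file names give an E value of 0.001 for the SICER islands, and each library was called separately. The deposited files hold chromosome, start and end per interval, with no count, score or strand. How tags were joined into intervals is not stated. Intervals within a file did not overlap, and their most common length was 150 bp, so 450 covered bases stand for 3 tag lengths. At most 5 autosomal intervals were identical between the AG libraries.

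Covered bases were summed in 10-kb bins from position 0, and distances were measured from bin edges. Shared stretches joined bases covered in both AG libraries over at most 1500 bp. Named regions were the 5 members with the highest and lowest smaller AG value, the 3 with the widest stretch, the 3 nearest to and farthest from GG, the member with the largest AG ratio, and bins at the threshold. The members, the rule and these choices were made with earlier results of the same data known. No test between groups was run inside the members, since the rule uses every library. The rule was also applied with 3 libraries and the bins looked up in the library left out, with exact binomial intervals for counting error. Coverage, rule and distances were tested on simulated data. The versions were scipy 1.17.1, pandas 2.3.3, numpy 2.4.6 and matplotlib 3.10.9 under Python 3.11.15. Genes, sequence and annotation had been planned for a reference of rheMac8 and were not used here.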

Additional observations from a re-analysis of the deposited data

Results flagged for a closer look

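The members were drawn from autosomes, and the same rule for AG coverage without a GG base was met by bins on the sex chromosomes, which took no part in the comparisons. On X, 10 of 14914 bins had at least 450 covered bases in both AG libraries and no GG base, with a median coverage of 2360 bases in AG replicate 1 and 1931 in AG replicate 2, and 8 of the 10 lay in the first 2 Mb. On Y, 6 of 1125 bins did so, with a median coverage of 1844 and 1398 bases. Embryos with a nuclear genome from the mother alone carry no Y, so the lack of GG bases there follows from the genotype.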

How the results depend on the processing

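Of 15 alternatives, 13 left the number of members within 1.5 times 681. With 1 AG-only bin per window it was 343, and leaving out a library gave 699 to 1365. The median AG coverage moved by more than the 15.6 bases between its libraries to 1806 with 300 bases marking a bin, 1945 with 750, 1558 in 5-kb bins, 2132 in 20-kb bins, 1832 in bins shifted by 5 kb, 1865 with 1 to 5 AG-only bins per window and 1822 with no GG base in neighbouring bins, and ranged from 1247 to 1828 when a library was left out. A smaller bin cuts sites and a larger one collects more of them by construction, and the cause of the other shifts was not tested. The median distance to GG was 97.1 kb with 1 AG-only bin per window and 103.1 kb with no GG base in neighbouring bins, which removes near members, and 59.2 to 90.2 kb when a library was left out. The share of bins found again in the AG library left out stayed within its interval under every alternative run. The ratio of outer to other members per Mb was examined after seeing the data and stayed above 1 in all 15 alternatives, from 1.41 to 4.62. No paired analysis was possible because no result came from a test and the labels tie no AG library to a GG library. Unknown depth limits every statement on missing GG coverage.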
